A study of Mus musculus with 10 samples.

Results

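A set of 10 cytosolic heat shock genes was followed in the whole brains of 5 transgenic (Tg) mice that carry Glo1 on a bacterial artificial chromosome and of 5 wild-type (WT) littermates. The genes were Hspa1a, Hspa1b, Hspa8, Hsph1, Dnajb1, Hspb1, Hsp90aa1, Hsp90ab1, Hspa4l and Bag3. They were taken by symbol, and each was represented by the brightest probe set that the array annotation gives to that symbol alone. Of the 10 genes, 8 had such a probe set, out of 19938 genes with a value. Hspa1b shares its only annotated probe set with Hspa1a, and no probe set named here was assigned to Hsp90ab1, so neither gene was analysed on its own. All mice were untreated, group-housed adult males on the C57Bl/6J background, and each brain was hybridised to 1 Affymetrix gene array, giving 5 biological replicates per genotype. The Tg animals overexpress Glo1, whose enzyme glyoxalase 1 clears the reactive glycolysis by-product methylglyoxal. The sources used here do not state the promoter on the transgene, its copy number, the founder line or an age beyond adult.

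Heat shock proteins are chaperones that bind unfolded or damaged proteins, keep them soluble and help them refold. In the cytosol, HSP70 proteins do this with J-domain partners such as Dnajb1, which deliver clients and start ATP hydrolysis, and with HSP110 proteins such as Hsph1, which exchange the nucleotide. When unfolded protein accumulates, as in warmed or toxin-exposed cells, heat shock factor 1 binds inverted repeats of the letters GAA upstream of these genes and raises their transcription. Some family members, such as Hspa8, are made in every cell without stress, whereas others, such as Hspa1a, are kept low until they are induced.

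Upstream sequences are shown for 3 members whose values varied most from mouse to mouse, and for 1 steadier member. Each is the stretch of 250 bases before the annotated transcription start, 5′ to 3′ on the gene's strand, from RefSeq on GRCm38.p6. Capitals mark every match to GAANNTTC or TTCNNGAA, both of which read the same on either strand, so that a search of 1 strand covers both.
Hspa1a (chr17:34972157-34972406, minus strand): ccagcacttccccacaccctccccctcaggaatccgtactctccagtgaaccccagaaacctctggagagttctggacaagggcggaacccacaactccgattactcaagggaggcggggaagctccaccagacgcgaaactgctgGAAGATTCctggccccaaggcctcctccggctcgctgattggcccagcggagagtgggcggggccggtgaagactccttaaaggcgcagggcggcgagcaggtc
Hspb1 (chr5:135887669-135887918, plus strand): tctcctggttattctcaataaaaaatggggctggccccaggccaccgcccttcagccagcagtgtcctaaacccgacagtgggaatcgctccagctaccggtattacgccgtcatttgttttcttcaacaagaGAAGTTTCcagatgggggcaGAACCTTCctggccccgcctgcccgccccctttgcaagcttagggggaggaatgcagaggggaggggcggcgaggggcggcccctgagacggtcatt
Hsph1 (chr5:149636337-149636586, minus strand): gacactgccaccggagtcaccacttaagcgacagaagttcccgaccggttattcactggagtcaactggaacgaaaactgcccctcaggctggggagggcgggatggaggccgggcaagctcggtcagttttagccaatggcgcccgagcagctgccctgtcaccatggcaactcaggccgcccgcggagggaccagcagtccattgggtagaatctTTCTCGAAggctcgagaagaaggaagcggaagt
Hspa4l (chr3:40745363-40745612, plus strand): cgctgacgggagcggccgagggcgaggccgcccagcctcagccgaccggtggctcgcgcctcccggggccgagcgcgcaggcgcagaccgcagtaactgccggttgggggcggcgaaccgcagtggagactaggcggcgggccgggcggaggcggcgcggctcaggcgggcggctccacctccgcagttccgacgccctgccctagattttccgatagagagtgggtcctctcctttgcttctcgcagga

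The Hspb1 stretch holds 2 matches, which begin 117 and 97 bases before the start, Hspa1a holds 1 at 104 bases and Hsph1 holds 1 at 33 bases. Hsph1 has another annotated start, and the same match begins 54 bases before that one. Hspa1b, whose stretch has the same base as Hspa1a at 247 of 250 positions, also holds 1 match at 104 bases. Of 7 members with an entry in the sequence table, these 4 held a match, and the letters were not found in the stretches of Dnajb1, Bag3 and Hspa4l. Across all 32851 annotated starts, 12.8% of stretches of this length hold at least 1 match. A longer pattern, which adds 1 more repeat at the same spacing, occurs in 0.466% of these stretches. That longer pattern was not found in the stretch of any of the 7 members. A match is a run of letters and says nothing here about binding.

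The Glo1 transcript, which checks the genotype labels, exceeded its WT level 2.84-fold in Tg (95% interval 2.51 to 3.20, limma adjusted p = 1.53e-05). Array medians lay between 7.95 and 8.05 log2 units. Markers of the labelled tissue were bright on every array: the mean of 7 neuronal markers lay between 12.29 and 12.32 in Tg and between 12.28 and 12.34 in WT. WT replicate 2 stood apart on the cerebellar markers, whose mean over 11 measured genes was 8.36 there, against 10.70 to 10.81 on the other WT arrays and 10.54 to 10.65 in Tg. Its value for Gabra6, the granule cell GABA-A receptor subunit, was 6.03. Pituitary markers, 7 genes, averaged 9.28 in Tg replicate 2 and 9.64 in WT replicate 2, against at most 6.84 elsewhere. In whole-brain RNA, fewer cells of a type and less RNA per cell cannot be told apart.

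Among the stress-inducible members, Hspb1 varied most. Hspb1 encodes the small heat shock protein HSP27 (HSP25 in mouse), which holds unfolding proteins in a refoldable state and binds actin. Its values were 8.50, 8.59, 8.74, 9.17 and 9.32 log2 units in Tg replicates 1 to 5, against 8.63, 8.79, 8.57, 8.52 and 9.20 in WT replicates 1 to 5. Tg replicates 4 and 5 and WT replicate 5 formed an upper set at 9.17 to 9.32, and the other 7 arrays lay at or below 8.79. The genotypes overlapped. A second Hspb1 probe set gave the same picture, with a difference of 0.12 log2 units on both.

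Hspa1a encodes the inducible cytosolic HSP70. It read 8.51, 8.62, 8.56, 8.83 and 9.03 log2 units in Tg, against 8.57, 8.53, 8.56, 8.62 and 8.77 in WT. The same 3 arrays were the highest, and the remaining 7 lay within 8.51 to 8.62. The probe set annotated to both Hspa1a and Hspa1b, which the rule leaves out and which cannot be split between the near-identical copies, read 9.56, 9.48, 9.47, 9.74 and 10.08 in Tg, against 9.43, 9.64, 9.34, 9.44 and 9.76 in WT. Its 3 highest arrays were again Tg replicate 5, WT replicate 5 and Tg replicate 4.

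Hsph1, the HSP110 exchange factor that helps HSP70 pull apart aggregates, read 10.91, 10.89, 10.91, 11.18 and 11.21 in Tg, against 10.81, 11.11, 10.82, 10.84 and 11.05 in WT. Here WT replicate 2 joined the upper arrays and lay above WT replicate 5. Dnajb1, the J-domain protein HSP40, read 8.96, 8.81, 8.95, 9.12 and 9.29 in Tg, against 9.01, 8.99, 9.02, 8.92 and 9.11 in WT. Its 3 highest arrays were the same 3 as for Hspb1. Bag3, a co-chaperone that joins HSP70 to small heat shock proteins and to autophagy, read 8.53, 8.62, 8.68, 8.61 and 8.76 in Tg, against 8.53, 8.52, 8.55, 8.49 and 8.63 in WT. Tg replicate 5 was again the highest, but Tg replicate 4 lay within the WT range.

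Over all 10 arrays, the mainly constitutive members spanned a narrower band than Hspb1, Hspa1a, Hsph1 and Dnajb1. Hspa8, the constitutive HSC70 that also uncoats clathrin vesicles at synapses, read 13.53, 13.51, 13.53, 13.61 and 13.63 in Tg, against 13.50, 13.38, 13.52, 13.58 and 13.65 in WT. WT replicate 2 was its lowest array. Hsp90aa1, the HSP90 isoform that is abundant in brain and can be raised further by stress, read 12.68, 12.53, 12.67, 12.73 and 12.73 in Tg, against 12.63, 12.58, 12.69, 12.63 and 12.70 in WT. Hspa4l, an HSP110 family member, read 10.98, 10.84, 10.90, 11.00 and 11.05 in Tg, against 10.95, 10.76, 10.96, 10.95 and 10.98 in WT, with WT replicate 2 lowest. For all 8 members the genotypes overlapped. Across all probe sets, 0.46% had Tg and WT arrays that did not overlap.

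**Figure D1:**
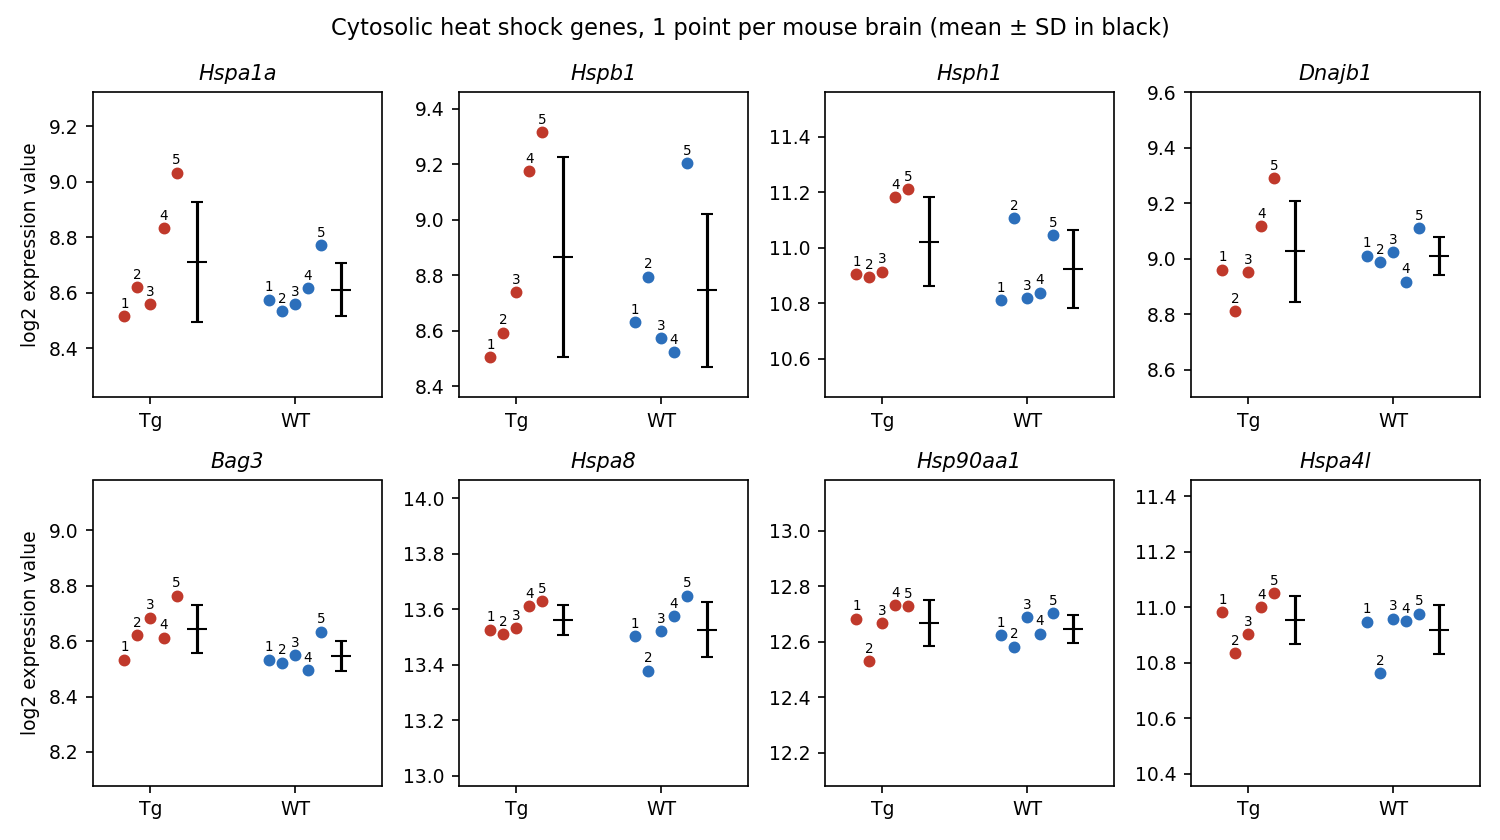
Log2 expression value (y axis) of the 8 measured heat shock genes, 1 point per mouse with its replicate number, Tg left and WT right, with the mean ± SD of 5 mice in black. Every panel spans the same number of log2 units. Tg replicates 4 and 5 and WT replicate 5 are highest for Hspa1a, Hspb1 and Dnajb1, and Bag3, Hspa8, Hsp90aa1 and Hspa4l stay in a narrow band.

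Over the 10 arrays, spread set 4 of the 5 measured inducible members above all 3 constitutive ones, with Bag3 as the exception. For Hspa1a this rested on Tg replicates 4 and 5 and WT replicate 5. On the other 7 arrays Hspa1a spanned only 8.51 to 8.62. That was narrower than Hspa8 (13.38 to 13.58), Hsp90aa1 (12.53 to 12.69) and Hspa4l (10.76 to 10.98). Dnajb1 (8.81 to 9.02) was no wider there than Hspa4l, while Hspb1 (8.50 to 8.79) and Hsph1 (10.81 to 11.11) stayed wider than all 3. The pooled within-genotype SD was 0.32 log2 units for Hspb1, 0.17 for Hspa1a, 0.15 for Hsph1 and 0.14 for Dnajb1, against 0.087 for Hspa4l, 0.080 for Hspa8 and 0.068 for Hsp90aa1. Among probe sets whose mean lay within 0.5 log2 units of the member's own, the SD of Hspb1 exceeded that of 98.8%, that of Hsph1 89.8%, that of Hspa1a 88.2% and that of Dnajb1 81.3%. Hspa4l stood at 59.0% and Hsp90aa1 at 52.7% on the same measure. Hspa8 stood at 79.1%, and at 73.7% without WT replicate 2. Its other 2 probe sets stood at 49.4% and 53.9%, so its place depended on the probe set. Bag3 had an SD of 0.072, which exceeded that of 24.5% of probe sets of like brightness (44.5% without WT replicate 2). From the lowest to the highest of the 10 mice the value of Hspb1 spanned 1.76-fold, of Hspa1a 1.43-fold, of Dnajb1 1.39-fold, of Hsph1 1.32-fold, of Hspa4l 1.22-fold, of Bag3 and Hspa8 1.21-fold each and of Hsp90aa1 1.15-fold.

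Mean values over the 10 arrays were 8.59 for Bag3, 8.66 for Hspa1a, 8.80 for Hspb1, 9.02 for Dnajb1, 10.94 for Hspa4l, 10.97 for Hsph1, 12.66 for Hsp90aa1 and 13.54 for Hspa8. Hspa8 was brighter than 99.7% of all probe sets and Hspa1a than 61.1%. Here too 4 of the 5 inducible members lay below all 3 constitutive ones, this time with Hsph1 as the exception. Brightness on an array also depends on the probes of each set and does not rank genes by their number of molecules.

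**Figure D2:**
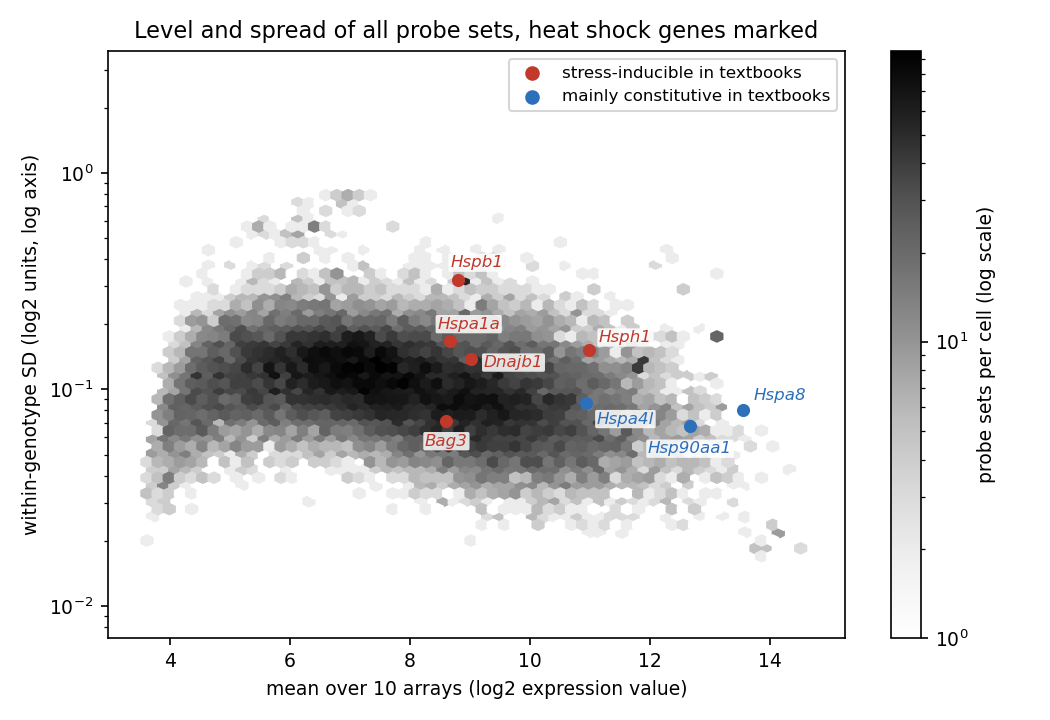
Mean over 10 arrays (x axis, log2 expression value) and pooled within-genotype SD (y axis, log2 units on a log axis) of all 28944 probe sets as grey density, with the 8 heat shock genes marked in red (stress-inducible in textbooks) and blue (mainly constitutive). Hspb1 at 0.32 lies near the upper edge for its brightness, while Bag3 at 0.072 lies in the lower part of the cloud.

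The highest values of several members came from the same 3 mice. Hspb1 left a gap between 8.79 and 9.17 log2 units, with Tg replicates 4 and 5 and WT replicate 5 above it. These 3 arrays were picked by their Hspb1 values, so what follows is a description with no test. They also held the 3 highest values of Hspa1a, Dnajb1, Hspa8 and Hsp90aa1, 4 of the other 7 members; for the dimmest of the 3 Hsp90aa1 probe sets they did not. Among all probe sets they held the 3 highest values for 1.43% and the 3 lowest for 3.06%. Both genotypes were among them. In the serial numbers that the labels give each sample the 3 arrays ranked 8, 9 and 10 of 10. What that number counts is not stated, and its part in the pattern was not tested. The genotypes interleave in that order, with Tg at ranks 1, 3, 5, 8 and 10 and WT at ranks 2, 4, 6, 7 and 9.

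Because these arrays stood apart for several inducible and constitutive members, all correlations between members were taken over the other 7 arrays, after subtracting each genotype's mean. No r over the 10 arrays is given for a pair. The 7 arrays were left by their Hspb1 values, which narrows the range of Hspb1 in its own pairs. With 144 joint orders within genotype the smallest p that the exact permutation test allows is 0.0069, which times 28 pairs is 0.194, so a single pair could not pass after adjustment, and the values are a description. There 12 of 28 pairs had a positive Pearson r.

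Among the inducible members, Hsph1 and Hspb1 had r = 0.71 and rho = 0.39 (exact permutation, adjusted p = 0.486 for r and 0.791 for rho). Their r was 0.51 without the 2 arrays farthest from the median of the first-named gene, the rule used for every pair. Hspa1a and Hspb1 had r = -0.26 and rho = 0.036 (exact permutation, adjusted p = 0.880 and 0.986), and r = 0.17 without those farthest arrays. Hspa1a and Dnajb1 had the lowest r of the inducible pairs, -0.85, with rho = -0.75 (exact permutation, adjusted p = 0.486 and 0.688). Without the farthest 2 arrays their r was -0.027. Among the constitutive members, Hsp90aa1 and Hspa4l had r = 0.75 and rho = 0.82 (exact permutation, adjusted p = 0.486 and 0.688), and r = 0.73 without the farthest 2. Hspa8 and Hspa4l had r = 0.82 and rho = 0.57 (exact permutation, adjusted p = 0.486 and 0.688), and r = 0.69 without the farthest 2. Hspa8 and Hsp90aa1 had r = 0.44 and rho = 0.61 (exact permutation, adjusted p = 0.486 and 0.688), and r = 0.80 without the farthest 2. Hspa8 and Hsph1, a constitutive and an inducible member, had the lowest r of all 28 pairs, -0.88, with rho = -0.54 (exact permutation, adjusted p = 0.583 and 0.688). Without the farthest 2 arrays their r was -0.55. WT replicate 2, the array with low cerebellar markers, was kept among the 7. Of these it was the lowest for Hspa8 (13.38) and Hspa4l (10.76) and the highest for Hsph1 (11.11). Its part in these r values was not tested. No difference between the inducible and the constitutive pairs was tested.

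Other genes were ranked by how closely they followed the mean profile of the 5 measured inducible members over the 10 arrays, after centring by genotype. Among 12902 non-member genes in the upper 60% of brightness, the 6 with the highest Pearson r were Hyou1 (r = 0.98), Sdf2l1 (0.98), Jmjd6 (0.97), Hspa5 (0.97), Galnt9 (0.97) and Tmem11 (0.96). Hyou1, Sdf2l1 and Hspa5 encode chaperones or chaperone partners of the endoplasmic reticulum, and Hspa5 is the HSP70 of that compartment, known as BiP. Hspa5 read 11.31, 11.30, 11.31, 11.94 and 12.20 in Tg, against 11.31, 11.36, 11.36, 11.35 and 11.999 in WT. Its values on the 7 other arrays lay within 11.30 to 11.36, so the likeness of Hspa5 rested on the 3 arrays, and over the other 7 its r with the profile was 0.32. Over the same 7 arrays r was 0.97 for Hyou1 and 0.57 for Sdf2l1. These 7 are among the 10 arrays by which the genes were picked, so their r there is no separate evidence. These r values describe 10 shared arrays and carry no test.

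At the opposite end stood Cirbp, which had the lowest r of all 12902 genes (r = -0.96), followed by Opalin and Tubgcp2 (-0.96 each). Cirbp is the cold-inducible RNA-binding protein, whose transcript rises when mammalian cells are cooled and drops when they are warmed. It read 10.24, 10.24, 10.34, 9.85 and 9.62 in Tg, against 10.39, 10.30, 10.37, 10.41 and 9.93 in WT. Its 3 lowest arrays were the 3 on which Hspb1 was highest, and the other 7 lay within 10.24 to 10.41. Over those 7 its r with the profile was -0.15, and those of Opalin and Tubgcp2 were -0.21 and -0.72. Rbm3, the other cold-inducible RNA-binding gene listed, read 12.07, 11.98, 12.18, 11.47 and 11.50 in Tg, against 12.20, 11.66, 12.23, 12.31 and 11.66 in WT (r = -0.85, and -0.65 over the 7 arrays). WT replicate 2 and WT replicate 5 were about equally low for Rbm3.

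**Figure D3:**
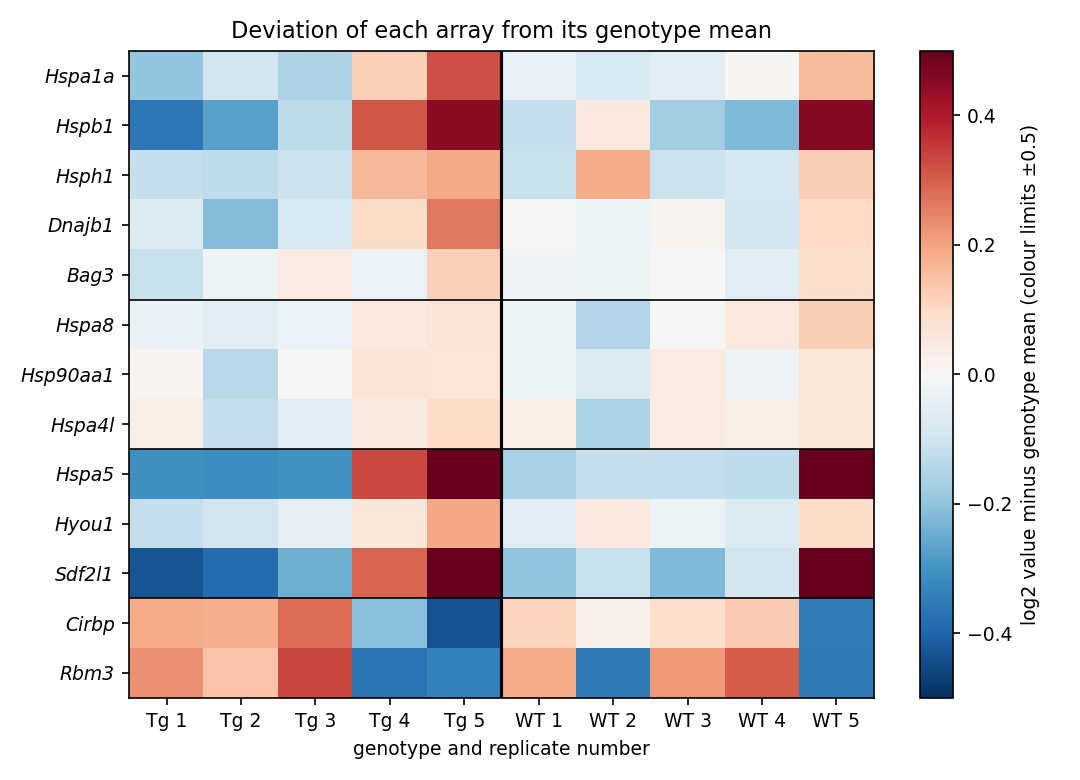
Log2 value of each array (columns, Tg left of WT) minus its genotype mean, for the 5 inducible members, the 3 mainly constitutive members, 3 endoplasmic reticulum chaperone genes and the cold-inducible genes Cirbp and Rbm3 (rows). Colours are limited to ±0.5 log2 units, which Hspa5 and Sdf2l1 exceed. Tg replicates 4 and 5 and WT replicate 5 are red for the inducible members, with Bag3 in Tg replicate 4 as the exception, and blue for Cirbp.

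**Figure D4:**
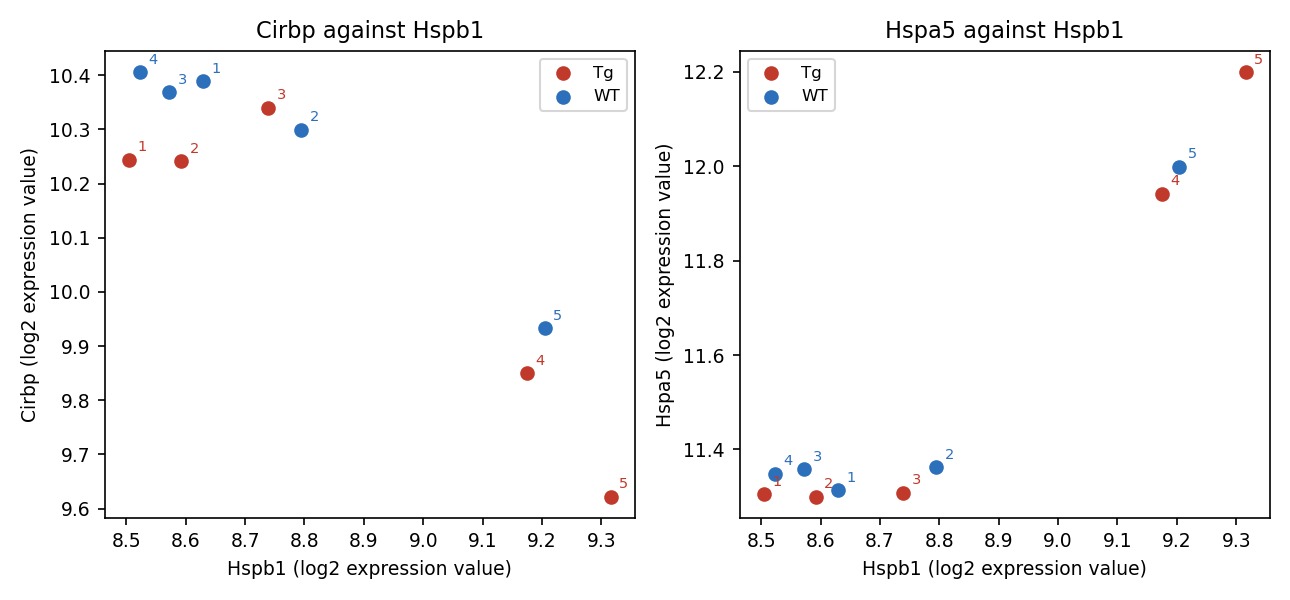
Cirbp (left panel, y axis) and Hspa5 (right panel, y axis) against Hspb1 (x axis), all in log2 expression values, 1 point per mouse labelled by replicate, Tg red and WT blue. The 3 mice at 9.17 or above for Hspb1 are the lowest for Cirbp, at 9.62 to 9.93, and the highest for Hspa5, at 11.94 to 12.20 log2 units.

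Tg and WT brain were then compared to ask whether raised Glo1 goes with a change in the cytosolic chaperone genes. No member passed: 0 of 8 had a limma adjusted p below 0.05, where 0.0345% of all 28944 probe sets did (0.00691% in the direction of higher in Tg), and 0 of 8 had an unadjusted p below 0.05, where 2.21% of all probe sets did. All 8 members had a higher mean in Tg, as did 47.8% of all probe sets. Their median difference, Tg minus WT, was 0.066 log2 units, beside -0.0031 over all probe sets. The 8 genes share arrays, and several had their highest values on the same 3, so their common sign is not a count of 8 independent results. That upper set of arrays held 2 Tg mice and 1 WT mouse.

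Bag3 came closest to the threshold. Its mean was 8.64 ± 0.086 log2 units in Tg and 8.55 ± 0.053 in WT (SD, n = 5 each), a difference of 0.096 (95% interval -0.013 to 0.21, limma adjusted p = 0.9998, exact permutation p = 0.0952). Hspb1 averaged 8.87 ± 0.36 in Tg and 8.74 ± 0.28 in WT (SD, n = 5 each), a difference of 0.12 that was smaller than the SD within either genotype (-0.26 to 0.50, exact permutation p = 0.595). Hspa1a averaged 8.71 ± 0.22 in Tg and 8.61 ± 0.094 in WT, a difference of 0.10 (-0.10 to 0.31, exact permutation p = 0.381). Hsph1 averaged 11.02 ± 0.16 in Tg and 10.92 ± 0.14 in WT, a difference of 0.098 (-0.090 to 0.29, exact permutation p = 0.325). Dnajb1 averaged 9.03 ± 0.18 in Tg and 9.01 ± 0.069 in WT, a difference of 0.017 (-0.16 to 0.19, exact permutation p = 0.865).

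The constitutive members had intervals narrower than those of Hspb1, Hspa1a, Hsph1 and Dnajb1, but only that of Hsp90aa1 was narrower than that of Bag3. Hspa8 averaged 13.56 ± 0.054 in Tg and 13.53 ± 0.0996 in WT (SD, n = 5 each), a difference of 0.036 (-0.081 to 0.15, exact permutation p = 0.516). Hsp90aa1 averaged 12.67 ± 0.082 in Tg and 12.65 ± 0.050 in WT, a difference of 0.023 (-0.083 to 0.13, exact permutation p = 0.595). Hspa4l averaged 10.95 ± 0.085 in Tg and 10.92 ± 0.088 in WT, a difference of 0.035 (-0.088 to 0.16, exact permutation p = 0.540). As ratios, these intervals reach from 0.946 to 1.11 for Hspa8, from 0.944 to 1.09 for Hsp90aa1 and from 0.941 to 1.12 for Hspa4l, while that of Hspb1 reaches from 0.838 to 1.41. The limma adjusted p was 0.9998 for each of the 8.

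Leaving out each array in turn showed which mice carried these differences. Without Tg replicate 5 the median difference of the members was 0.015, and without WT replicate 5 it was 0.093. Hspb1 differed by 0.0079 without Tg replicate 5 and by 0.24 without WT replicate 5, and Hspa1a by 0.020 and 0.14 in the same fits. Dnajb1 turned to -0.049 without Tg replicate 5 and to -0.0064 without either Tg replicate 4 or WT replicate 4. Hspa8 and Hspa4l turned to -0.00080 and -0.0041 without WT replicate 2, the array with low cerebellar markers. Bag3 moved least in relative terms, between 0.066 without Tg replicate 5 and 0.12 without Tg replicate 1. In each of these fits 0 members passed by limma adjusted p.

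**Figure D5:**
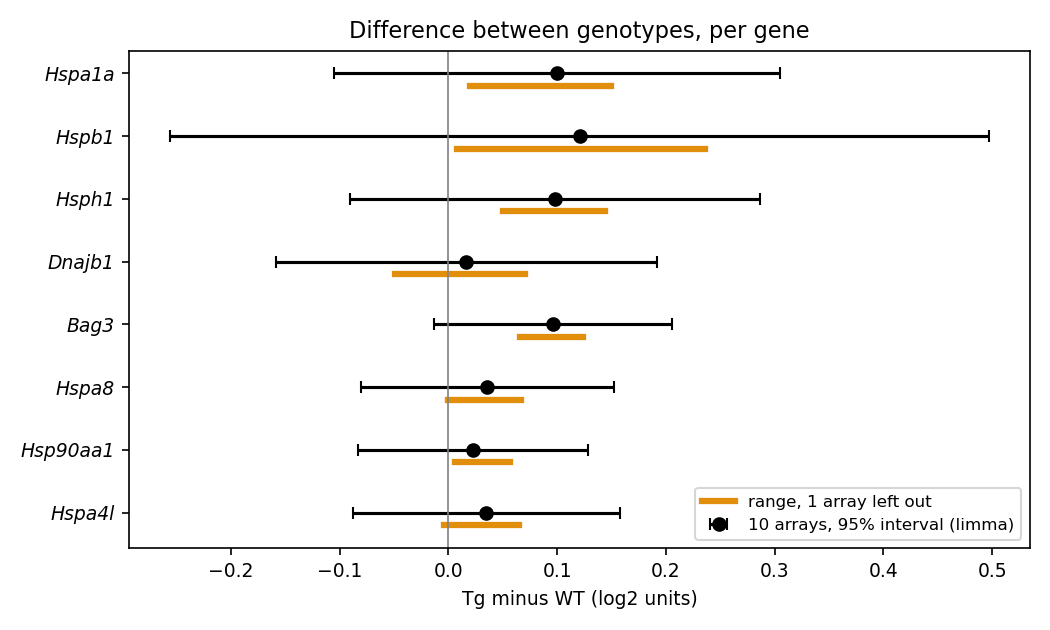
Difference between Tg and WT (x axis, log2 units) for the 8 genes, with black bars for the 95% interval of the limma fit on 10 arrays and orange lines for the range when 1 array is left out. Every 95% interval spans 0, and the orange lines of Dnajb1, Hspa8 and Hspa4l cross 0.

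The wider chaperone system was examined through lists of related genes, and 0 members of any list passed by limma adjusted p. Of 18 other measured targets of heat shock factor 1, 14 had a higher mean in Tg and 4 a lower one (median difference 0.038). Stip1, the organiser that joins HSP70 to HSP90, had the lowest p of that list, with 11.38 ± 0.11 in Tg and 11.26 ± 0.098 in WT (SD, n = 5 each; difference 0.12, limma adjusted p = 0.9998). Mt2, a metallothionein and the brightest of the list, differed by -0.03 (95% interval -0.12 to 0.060). On 8 of these 18 genes Tg replicates 4 and 5 and WT replicate 5 held the 3 highest values, namely Stip1, Chordc1, Ahsa1, Dnaja4, Serpinh1, Cryab, Hspd1 and Hmox1, beside 1.43% of all probe sets. Chordc1, an HSP90 co-chaperone, read 10.11 to 10.33 on those 3 arrays and 9.49 to 10.01 on the other 7.

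The transcription factors and the general co-chaperones came next. Hsf1, the gene of heat shock factor 1 itself, was listed but had no value under the probe set rule. Of 4 measured genes of the heat shock factor family and its regulators, 3 had a higher and 1 a lower mean in Tg (median 0.0035). Hsbp1, which binds heat shock factor 1 and was the brightest, differed by 0.0037, and Hsf5, with the lowest p, by -0.015. Of 22 HSP70 and HSP90 co-chaperones, 12 had a higher and 10 a lower mean in Tg (median 0.0083). For 0 of the 22 were the 3 mice the highest, nor for any of the 4 genes of the heat shock factor list. Dnajc6, or auxilin, which works with Hspa8 on clathrin coats, differed by 0.019, and Dnajb6, a suppressor of aggregation, by 0.10. Of 8 subunits of the TRiC/CCT chaperonin, the ring that folds actin and tubulin, 4 had a higher and 4 a lower mean (median 0.00010), with Cct2 at -0.0054 and Cct4 at 0.036. The 3 mice were the highest for 1 of these 8.

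Other members of the HSP70 and small heat shock families were examined as well. In a list of 8 further HSP70 family genes, which also holds the mitochondrial HSP90 gene Trap1, 3 had a higher and 5 a lower mean in Tg (median -0.018). Hspa9, the mitochondrial HSP70, differed by -0.018 and Hspa14 by -0.068. The 3 mice were the highest for 1 of the 8, Hyou1, and the lowest for 1, Hspa9. Of 8 other small heat shock genes, 5 had a higher and 3 a lower mean (median 0.025), with Cryab, the alpha-B crystallin of glia, at 0.057 and Hspb2 at 0.11. Cryab, which also stands in the list of heat shock factor 1 targets, was the 1 gene of these 8 that had its 3 highest values in Tg replicates 4 and 5 and WT replicate 5, at 11.57 to 11.60, with 11.28 to 11.54 on the other 7 arrays.

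Chaperones of the endoplasmic reticulum, which answer to a separate stress pathway, were high in the same mice. All 13 measured genes had a higher mean in Tg (median 0.061) and 0 passed. On 11 of the 13 the same 3 arrays were the highest, the exceptions being Canx and Dnajb9, beside 1.43% of all probe sets. The mean of the 13 genes was 10.70 and 10.85 in Tg replicates 4 and 5 and 10.34 to 10.40 in the other Tg arrays, against 10.76 in WT replicate 5 and 10.33 to 10.43 in the other WT arrays. Canx, the brightest, differed by 0.037 between genotypes and Dnajb11, of lowest p, by 0.080. Both cold-inducible genes had a lower mean in Tg, Cirbp by -0.22 (95% interval -0.53 to 0.087) and Rbm3 by -0.17 (-0.55 to 0.21), and neither passed (limma adjusted p = 0.9998 each).

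Genes that respond to neuronal activity or to stress hormone were listed for comparison. Of 12 immediate early genes, 4 had a higher and 8 a lower mean in Tg (median -0.078), and for 0 of them were the 3 mice the highest and for 1 the lowest. An unadjusted limma p below 0.05 was found for 2 of the 12, beside 2.21% of all probe sets. Neither passed (limma adjusted p = 0.9998 each): Fos, an activity-induced transcription factor, differed by -0.25, and Btg2, an antiproliferative gene, by -0.33. Npas4, an activity-dependent transcription factor, had the largest difference of the 12, at -0.37 (95% interval -0.75 to 0.010), and Egr1, the brightest, differed by -0.11. For 1 of 6 measured glucocorticoid-induced genes the 3 mice were the highest. All 6 had a lower mean in Tg (median -0.038), among them Zbtb16, the brightest, at -0.066 and Per1, a clock gene, at -0.04.

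Markers of cell types and adjoining tissues were set beside the pattern. The mean of 6 oligodendrocyte markers was 11.25 and 11.17 in Tg replicates 4 and 5 and 11.34 to 11.36 in the other Tg arrays, against 11.28 in WT replicate 5 and 11.33 to 11.39 in the other WT arrays. Of the 6 genes, 1 had its 3 lowest values on those arrays, Opalin, a gene of myelinating oligodendrocytes, at 8.70 to 9.02 with 9.43 to 9.54 elsewhere. The pooled within-genotype SD was 0.31 for Opalin and at most 0.073 for each other gene of the 6, so Opalin weighed heavily in that mean. The 3 arrays were also the lowest for 2 of 7 neuronal, 1 of 7 endothelial and mural and 1 of 3 blood markers, and the highest for 1 of 7 astrocyte markers. Over all probe sets they were the lowest for 3.06% and the highest for 1.43%. The mean of the neuronal markers was 12.290 to 12.296 on the 3 arrays and 12.278 on WT replicate 2. On the other 6 arrays it was 12.304 to 12.337, so the 3 lay below those 6. The mean of 7 astrocyte markers was 10.53 and 10.54 on the 2 Tg arrays and 10.54 on the WT array, within or next to the range of 10.46 to 10.54 on the others. Endothelial and mural markers, 7 genes, averaged 9.657 to 9.666 on the 3 arrays and 9.642 on WT replicate 2. On the other 6 arrays they averaged 9.672 to 9.761, so the 3 lay below those 6. Microglial and choroid plexus means on the 3 arrays fell within the range of the other 7. Without WT replicate 2 the cerebellar mean was 10.59 to 10.81 on the other 6 arrays, and 10.54 and 10.61 in Tg replicates 4 and 5 and 10.70 in WT replicate 5, so Tg replicate 4 lay below them, and the meningeal mean spanned 8.91 to 8.99 on the 3 with 8.99 to 9.08 on the others. Blood markers, 3 genes, averaged 6.86 to 6.90 on the 3 arrays and 6.80 to 7.89 on the others. The part of these differences in the heat shock values was not tested.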

How the data were processed

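Biotin-labelled RNA of each brain, isolated with TRIzol and RNeasy columns, was read on 1 array, per the labels' protocols. The deposited values are log2 expression values that the authors made with Expression Console (Affymetrix, version 1.1.2), as the submitters' processing notes state. Which background correction and normalization it ran is not stated. They range from 3.28 to 14.74 over 35556 rows. Control rows (6612, 18.6%) were left out, and 28944 probe sets were tested, of which 21789 had 1 gene, 1621 several and 5534 none named. Symbols were updated by Entrez identifier (21698 matched).

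Tg and WT were compared with limma 3.58.1 (lmFit, eBayes, no covariate) under R 4.3.3. P-values were adjusted by Benjamini-Hochberg across the 28944 probe sets, with a threshold of 0.05, and the step was tested on simulated data. The simulation gave all probe sets independent noise of the same SD and used changes larger than any member's difference. It therefore does not show how small a difference of the members could be found. Two-sided exact permutation tests over all assignments of 5 against 5 arrays gave single-gene p values. Correlations used deviations from genotype means, with exact permutation within genotype. The members and lists were chosen with earlier results of these data known. The text names all members, the brightest and lowest-p gene of each pathway list, the 6 genes most and the 3 least like the inducible profile, and single list genes chosen after their values were seen (Chordc1, Ahsa1, Dnaja4, Serpinh1, Hspd1, Hmox1, Dnajb9, Trap1, Btg2, Npas4, Gabra6). Sequences and gene names are from RefSeq GRCm38.p6; the probes' own build is not stated. Depth in reads does not apply: the number of arrays limits the precision. Deviations of same-numbered Tg and WT mice correlated in some pairs and not in others (from -0.47 to 0.45 over 5 pairs), and replicates were treated as unpaired.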

Additional observations from a re-analysis of the deposited data

Results flagged for a closer look

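Groups of 5 arrays were searched for a single array far from the other 4, for the 8 members and 10 marker means in each genotype. Of 36 groups, 6 had such an array, where chance gives about 1 in 20. Among the members, Hspa4l in WT replicate 2 was the 1 case, at 10.76 log2 units against 10.95 to 10.98 on the other WT arrays. The same array was lowest for the mean of cerebellar markers (8.36, others 10.70 to 10.81) and for the mean of choroid plexus markers (8.96, others 9.08 to 9.11), and highest for the mean of pituitary markers (9.64, others 6.56 to 6.72). Tg replicate 2 was highest for the mean of pituitary markers (9.28, others 6.65 to 6.84) and lowest for the mean of astrocyte markers (10.47, others 10.53 to 10.54).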

How the results depend on the processing

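No member passed in any of the 20 alternatives, and the median difference of the members stayed above 0 in all, from 0.015 to 0.093 with single arrays left out. Probe sets past the threshold numbered 10, and from 9 to 11 with single arrays left out; those with an unadjusted p under 0.05 numbered 640, against 3189 without WT replicate 2, 2147 with array weights and 110 in the upper 30% of probe sets. Bag3 had an unadjusted p under 0.05 in 6 alternatives: 0.035 after quantile and 0.048 after cyclic loess normalization, 0.031 without Tg replicate 1, 0.044 without WT replicate 5, 0.0496 with the replicate block and 0.0455 with the serial rank. It passed after adjustment in none of them. With single arrays left out Dnajb1 ranged from -0.049 to 0.070 log2 units (reversed without Tg replicate 4, Tg replicate 5 or WT replicate 4), Hspa8 from -0.00080 to 0.067 and Hspa4l from -0.0041 to 0.065 (both reversed without WT replicate 2). The alternative with the rank of the label serial number as a covariate, added after seeing the data, gave a median of 0.069. With the replicate number as a block, 11 probe sets and 0 members passed and the median was 0.066; the numbers do not consistently pair the mice, though replicates 2 and 3 each correlated best with their own number. Quantile and cyclic loess normalization gave medians of 0.079 and 0.080, and array weights 0.045. In the upper 30% of probe sets 4 of the 8 members remained (median 0.036). Signal over background is not known per array here, and 5 arrays per group leave Hspb1 an interval of -0.26 to 0.50.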

Other observations

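Apart from the chaperones, the genes that most closely followed the inducible members over the 10 arrays were Jmjd6, Galnt9 and Tmem11. They encode a nuclear hydroxylase, a glycosyltransferase of the O-linked pathway and a mitochondrial inner membrane protein. Over the 7 arrays outside the upper set their r with the profile was only 0.37, 0.16 and 0.55, in that order. Jmjd6 read 9.03 and 9.13 in Tg replicates 4 and 5 and 8.84 to 8.89 in the other Tg arrays, against 9.01 in WT replicate 5 and 8.85 to 8.90 in the other WT arrays. Galnt9 read 10.01 and 10.11 in those Tg mice and 9.98 in that WT mouse, with 9.68 to 9.79 on the other 7 arrays. Tubgcp2, a component of the gamma-tubulin complex, ran the other way, at 9.35 and 9.26 in the 2 Tg mice and 9.39 in the WT mouse, with 9.44 to 9.53 elsewhere.

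A pair of probe sets annotated jointly to Hspa8 and to the small nucleolar RNAs Snord14c and Snord14d, which lie within the Hspa8 gene, was left out by the rule. The first of them read 10.08, 9.80, 9.76, 9.73 and 9.57 in Tg, against 10.25, 10.32, 10.49, 10.74 and 9.43 in WT. It differed by -0.46 log2 units (95% interval -0.90 to -0.021, limma adjusted p = 0.9998, exact permutation p = 0.0952), and the second by -0.465. WT replicate 5, the highest array for the Hspa8 probe set, was the lowest here, and which of the 3 transcripts these probes measured was not tested.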
